A study of Mus musculus with 4 samples.

Results

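The endothelium lining the heart and its vessels senses the drag of moving blood and answers with a small set of genes. Flow opens the ion channel Piezo1 and signals through a kinase cascade to the transcription factors Klf2 and Klf4, which turn on genes such as Nos3, the endothelial nitric oxide synthase, and restrain Edn1, the precursor of the vasoconstrictor peptide endothelin-1. Endothelin-1 is released from its precursor by the protease Ece1 and is read by the receptors Ednra and Ednrb, and in the embryo this axis also patterns neural crest and conduction tissue. The 9 genes Klf2, Klf4, Nos3, Aqp1, Piezo1, Edn1, Ednra, Ednrb and Ece1 were chosen by symbol from the 55405 features of the matrices. All 9 were present.

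Single cells of mouse heart ventricles were sequenced at E12.5. The libraries labelled KO came from Gata4fl/fl embryos and those labelled het from Gata4fl/+ embryos, with 2 libraries in each group. All embryos carried Cdh5(Pac)-CreER, a Cre active in endothelium after tamoxifen, which was given at E9.5. All also carried Rosa26mTmG/+, a reporter that changes from a red to a green membrane protein where Cre has acted. Endothelial Gata4 was thus targeted in both groups, on both alleles in KO and on 1 in het, and neither group is free of Cre or tamoxifen. Whether 1 embryo or a pool went into each library is not given, so p-values measure only the spread between these libraries, which may be technical.

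The matrices held 171252072 and 137890971 UMIs in KO 1 and KO 2, and 156491597 and 190207638 in het 1 and het 2. After filters 13721 and 6809 cells were kept in the KO libraries, and 22599 and 9939 in the het libraries, with medians of 7103, 12320, 4161 and 14050 UMIs per cell in KO 1, KO 2, het 1 and het 2. Library het 1 stood apart: 63.3% of its cells lay in unnamed clusters, against 13.4% in KO 1, 13.5% in KO 2 and 13.7% in het 2. Cell barcodes shared by 2 libraries numbered 14 to 87 per pair. Ddx3y, a Y-linked gene, had 990 and 0 UMIs in endothelial-like cells of KO 1 and KO 2, and 759 and 2521 in het 1 and het 2, so the make-up by sex differed between libraries. Gata4 itself stood at 221 and 189 CPM in endocardial-like cells of KO 1 and KO 2, against 122 and 103 CPM in het 1 and het 2. The labels do not say which part of Gata4 is deleted, and a 3′ tag outside that part checks nothing. The matrices also hold added features named FloxGata4 and FloxGata4_ctrl, which were not read here. The deletion was therefore not checked.

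Cells were clustered with the 9 genes left out of the variable genes, and clusters were named from marker lists. Endothelial-like cells numbered 1114 and 583 in KO 1 and KO 2, and 1336 and 1199 in het 1 and het 2. They split into 3 clusters: an endocardial-like one, a valve endocardial-like one led by Wnt4, Stmn2, Aqp1, Cyp26b1 and Adamts8, and a vascular-like one. Endocardial-like cells line the chambers, valve endocardial-like cells carry genes of the lining over the forming valves, and vascular-like cells carry coronary and capillary genes. All 12 general endothelial markers reached 5 CPM in each of the 3. The valve endocardial-like cluster took 24.8% and 20.1% of endothelial-like cells in KO 1 and KO 2, against 53.4% and 34.2% in het 1 and het 2. Values over the whole endothelial-like class therefore mix subtypes in unequal parts, and the subtypes are described one by one. CPM here scale each gene's UMIs to the summed UMIs of the class in that library, without globin. In endothelial-like cells the reporter's green transcript EGFP had 2165 and 2702 CPM in KO 1 and KO 2 and 1698 and 3376 CPM in het 1 and het 2. Cardiomyocyte-like cells of the same libraries had 73.9 and 36.3 CPM, and 125 and 66.7 CPM. Unnamed cluster 18, led by Fabp4 and Tcf15, also held EGFP, at 2788 and 3396 CPM in KO and 2739 and 3691 CPM in het. The endothelial marker Cdh5 was there too, at 143 and 148 CPM in KO and 214 and 159 CPM in het. This cluster had a median of 2033 UMIs per cell. The endothelial-like class and the shares above leave it out.

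Promoter letters are given for Edn1, the gene furthest apart between the groups, and for Klf2, the flow-induced factor, because each has a short run named for regulators of this pathway. The sequences are from the RefSeq table of build GRCm38.p6. The first is the 250 bases before the Edn1 start, chr13:42301226-42301475 on the plus strand, with capitals for GGTCTC, the reverse complement of the shear stress letters GAGACC. The second is 30 bases from the Edn1 start, chr13:42301476-42301505, with capitals for TTATC, the reverse complement of the GATA letters GATAA. The third is the 250 bases before the Klf2 start as RefSeq places it, chr8:72318812-72319061 on the plus strand, with capitals for a run of MEF2 type that was added to the search after the sequence had been read. The GENCODE gene model, whose positions are given for each gene, starts Klf2 upstream of the RefSeq start, so the last bases of this window lie inside that model.
Edn1 upstream: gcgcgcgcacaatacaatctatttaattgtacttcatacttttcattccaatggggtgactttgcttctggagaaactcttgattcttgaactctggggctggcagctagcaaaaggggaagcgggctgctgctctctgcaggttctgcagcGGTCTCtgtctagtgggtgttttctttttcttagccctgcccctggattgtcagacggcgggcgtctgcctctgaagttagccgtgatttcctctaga
Edn1 start: gccgggtcTTATCtctggctgcacgttgcc
Klf2 upstream: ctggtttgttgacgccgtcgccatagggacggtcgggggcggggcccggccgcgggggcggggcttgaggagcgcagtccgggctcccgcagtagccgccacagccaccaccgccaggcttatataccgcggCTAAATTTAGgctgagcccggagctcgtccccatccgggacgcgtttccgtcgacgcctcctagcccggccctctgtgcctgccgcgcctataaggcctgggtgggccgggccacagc

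Letters were searched on both strands. The shear stress letters GAGACC stood before the start in the windows of Edn1 and Piezo1, and in 13.7% of the 32851 windows of 250 bases. The letters CACCC of Krueppel-like factors stood before the start of Edn1, Klf2, Aqp1, Piezo1, Ednrb and Ece1, and in 52.0% of all windows. At or after the start, GATA letters stood in the windows of Edn1 and Klf2, and 41.6% of all windows of 300 bases, which run past the start, held them anywhere. GATAA or GATAG stood before the start in the window of Ednra alone among the members with a window, and in 37.4% of all windows. TGAGTCA (AP-1) and TATTTTTA (MEF2) were in no member's window before the start, and in 4.46% and 2.45% of all windows. The MEF2-type run of Klf2 was in 13 of the 32851 windows. A match is a description of letters and not a bound site, and Nos3 was named only.

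Edn1 (ENSMUSG00000021367.8, chromosome 13, 42301476 to 42307990, plus strand, GRCm38), the ligand gene, was the member furthest apart between the groups. In endocardial-like cells it stood at 51.8 and 56.1 CPM in KO 1 and KO 2, against 16.5 and 23.5 CPM in het 1 and het 2, from 545, 692, 83 and 352 UMIs. Both KO libraries lay above both het libraries, and the gap between the groups was wider than the spread within either. The means were 54.0 ± 3.09 and 20.0 ± 4.92 CPM in KO and het (SD, n = 2 each), a log2 difference of 1.40 (SE 0.234). Over all 14324 genes tested the adjusted p was 0.216 by the quasi-likelihood test of edgeR, so the difference did not pass 0.05 there. DESeq2, which called 40 genes in this class, gave 1.41 with adjusted p = 0.000274. With 1 library left out in turn the log2 difference was 1.15 to 1.80, and without het 1 it was 1.15. Such fits leave 1 library in a group, so only the size of the difference is given.

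In valve endocardial-like cells Edn1 had its highest mean level, at 117 and 119 CPM in KO 1 and KO 2 and 62.2 and 94.4 CPM in het 1 and het 2. The KO libraries again lay above the het libraries, with a log2 difference of 0.57 (SE 0.233), 0.29 without het 1 and 0.95 without het 2. In vascular-like cells it stood at 19.3 and 20.0 CPM in the KO libraries and 9.40 and 21.7 CPM in the het libraries, so the groups overlapped. The endocardial-like difference minus the valve endocardial-like one was 0.85 on the log2 scale (SE 0.135), with edgeR adjusted p = 0.0979, and 0.79 to 0.88 with 1 library left out. A separate, unnamed cluster 13, led by Col14a1, Spon2, Tnxb and Tcf21, had 59.7 and 77.4 CPM in KO 1 and KO 2 and 56.3 and 62.6 CPM in het 1 and het 2. In the named classes outside the endothelium Edn1 was low, from 0.322 CPM in macrophage-like cells of het 2 to 10.9 CPM in epicardial-like cells of het 2.

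**Figure D1:**
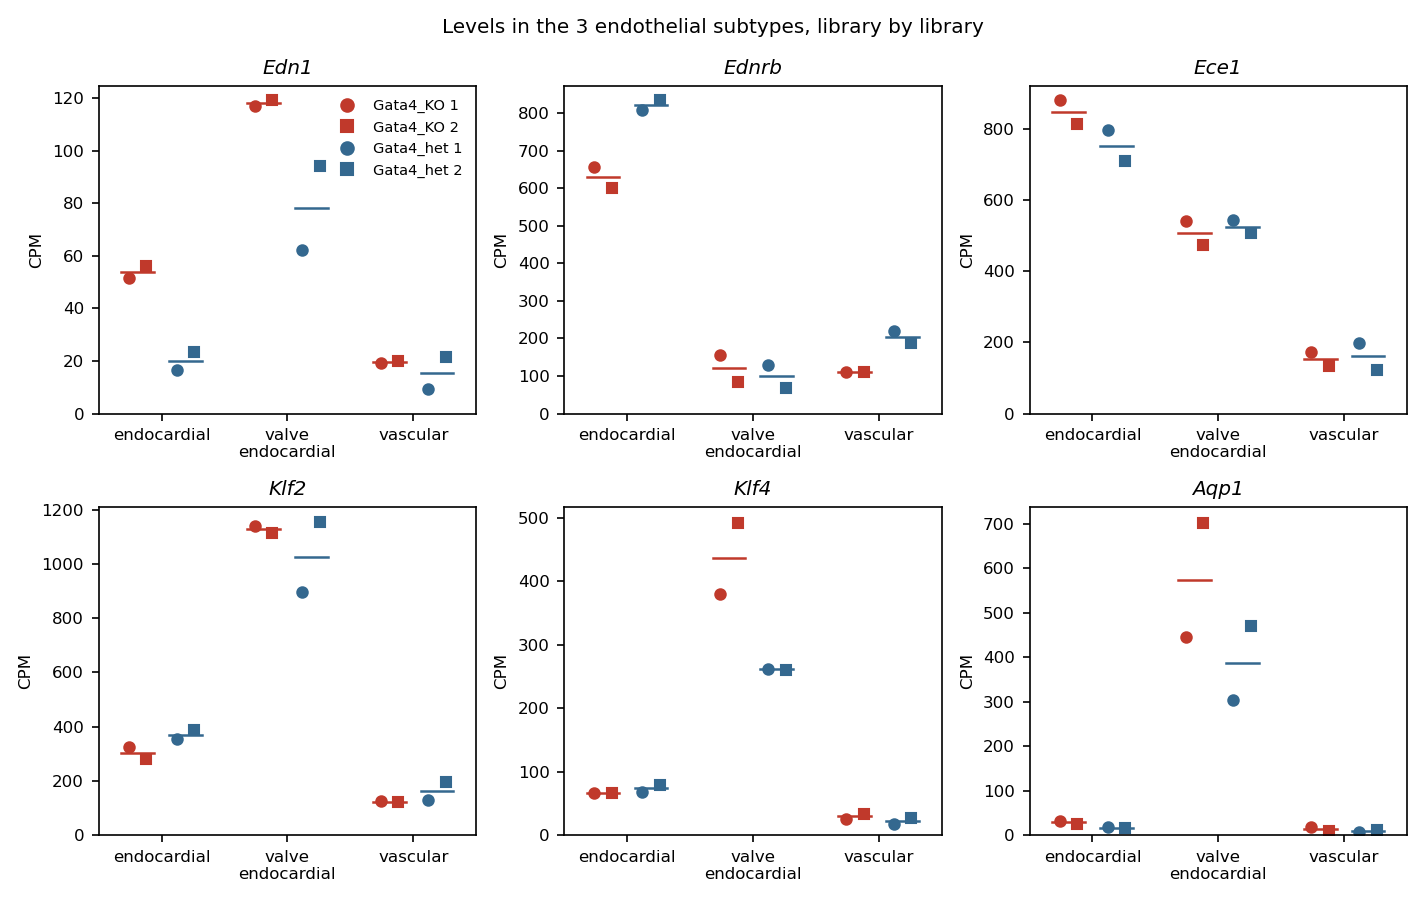
CPM of 6 of the genes (y axis, linear from 0) in the 3 endothelial subtypes (x axis), KO libraries in red on the left and het libraries in blue on the right, replicate 1 as circles and replicate 2 as squares, with short lines at the group means. Edn1 in endocardial-like cells stands at 51.8 and 56.1 CPM in KO and 16.5 and 23.5 CPM in het, and vascular-like Ednrb at 110 CPM in both KO libraries and 221 and 188 CPM in het.

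The higher Edn1 level in endocardial-like cells of the KO libraries came with more cells holding a UMI. Each cell was thinned to 2000 UMIs, and cells with fewer were left out, 30 and 9 in KO 1 and KO 2 and 3 and 11 in het 1 and het 2. Cells with an Edn1 UMI then made up 7.12% (95% Wilson interval 5.36 to 9.40) and 10.1% (7.45 to 13.6) in KO 1 and KO 2, against 0.875% (0.298 to 2.54) and 3.22% (2.09 to 4.91) in het 1 and het 2. Without thinning the shares were 29.2% and 35.6% in the KO libraries and 11.6% and 19.6% in the het libraries. Positive thinned cells held a mean of 1.27 and 1.26 Edn1 UMIs in KO 1 and KO 2, and 1.33 and 1.30 in het 1 and het 2, the het 1 mean from 3 cells. At levels this low a thinned positive cell mostly holds 1 UMI. Shares and means therefore cannot tell more expressing cells from more Edn1 per cell. In macrophage-like cells, where Edn1 was low in every library, thinned shares were 0.306% and 0% in KO 1 and KO 2 and 0% in both het libraries. The 0 of 90 cells in KO 2 still allows up to 4.09% by the Wilson interval. Intervals cover counting error only. Median UMIs without globin were 13620 and 26780 in endocardial-like cells of KO 1 and KO 2 and 10420 and 19000 in het 1 and het 2, against 21130 and 45960, and 22040 and 29120, in macrophage-like cells of the same libraries.

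**Figure D2:**
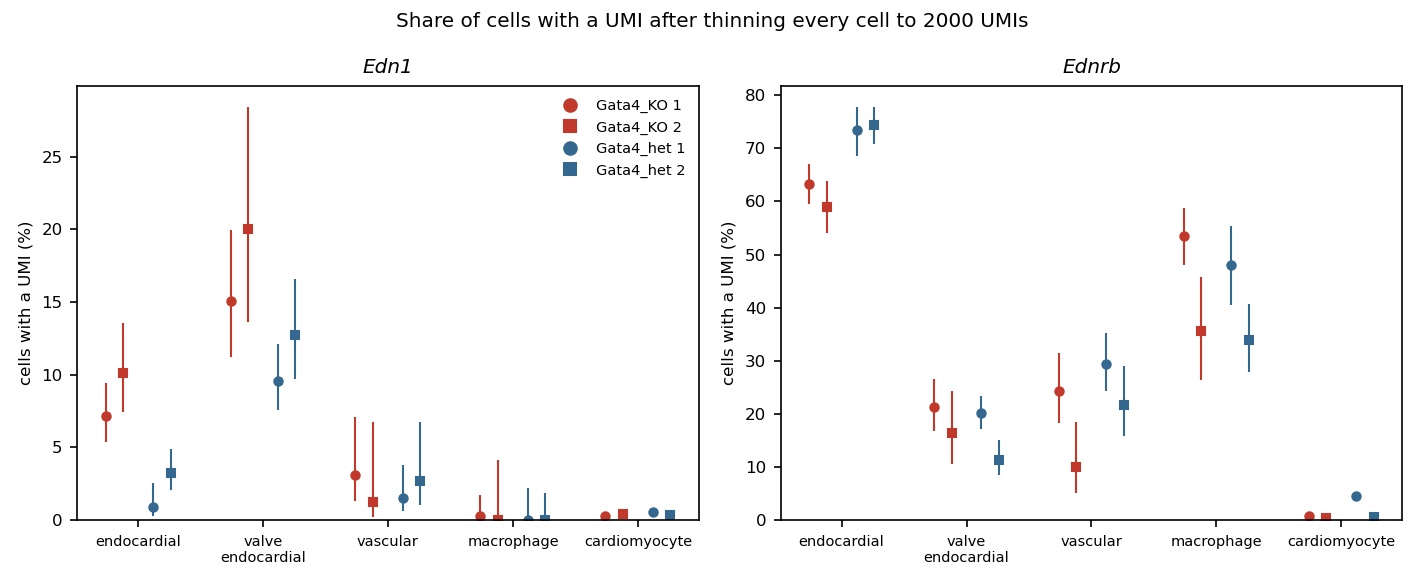
Percent of cells with at least 1 UMI of Edn1 (left) and Ednrb (right) after thinning to 2000 UMIs per cell, by class, with 95% Wilson intervals, KO libraries in red left of het libraries in blue. For Edn1 in endocardial-like cells the KO shares of 7.12% and 10.1% lie above the het shares of 0.875% and 3.22%, while the vascular-like Ednrb shares of 24.2% and 10.0% in KO and 29.4% and 21.6% in het overlap.

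Some markers of the valve endocardial list moved with this result. In endocardial-like cells the 9 markers summed to 1074 and 973 CPM in KO 1 and KO 2, against 594 and 515 CPM in het 1 and het 2. None was at 0, and 4 of the 9 (Vwf, Fbln2, Hapln1 and Bambi) were higher in both KO libraries, 1 (Foxc2) was lower in both, and 4 overlapped, where 13.5% of all genes were higher and 13.9% lower in both. Without Vwf the sums were 794 and 716 CPM in KO and 516 and 438 CPM in het. Not all of the list marked the valve endocardial-like cluster here. Vwf had 52.0 and 23.7 CPM there in KO and 34.7 and 16.6 CPM in het, below endocardial-like cells with 280 and 257, and 78.0 and 77.1 CPM. Foxc2 was also lower there, and Bambi overlapped. Prox1, Wnt4, Wnt9b, Sema3f, Fbln2 and Hapln1 were higher there, and Hapln1 is on the endocardial list too. Wnt4, which led the valve endocardial-like cluster, stood at 18.5 and 22.3 CPM in endocardial-like cells of KO 1 and KO 2 and at 21.1 and 46.5 CPM in het 1 and het 2. Klf2, also higher in the valve endocardial-like cluster than in the endocardial-like one, was lower in both KO libraries, as given under that gene. Of 12 mesenchymal markers 6 were higher in both KO libraries, 1 lower and none at 0, with sums of 1374 and 1186 CPM in KO and 1157 and 958 CPM in het. The 14 vascular markers summed to 3084 and 3490 CPM in KO and 3785 and 4288 CPM in het, with 3 higher, 3 lower and none at 0. The part of the valve, mesenchymal and vascular markers in the Edn1 difference was not tested. Cardiomyocyte markers took 0.233% and 0.1002% of endocardial-like UMIs in KO 1 and KO 2, and 0.200% and 0.151% in het 1 and het 2.

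Ece1 (ENSMUSG00000057530.14, chromosome 4, 137862237 to 137965229, plus strand), the protease gene that completes endothelin-1, was highest in the 3 endothelial subtypes but not confined to them. Mesenchymal-like cells had 52.7 and 53.1 CPM in KO 1 and KO 2 and 65.5 and 53.3 CPM in het 1 and het 2. Epicardial-like cells had 52.1 and 51.4 CPM in KO and 63.1 and 50.7 CPM in het. Endocardial-like cells had 884 and 814 CPM in KO 1 and KO 2 and 799 and 710 CPM in het 1 and het 2. The KO libraries lay just above the het libraries, by 0.18 on the log2 scale (SE 0.190), which is within its error. In valve endocardial-like cells Ece1 was at 541 and 475 CPM in KO and 544 and 508 CPM in het, and in vascular-like cells at 174 and 135 CPM in KO and 197 and 124 CPM in het. The groups overlapped in both, and the vascular-like difference of -0.05 turned to 0.26 without het 1.

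Ednrb (ENSMUSG00000022122.15, chromosome 14, 103814625 to 103844402, minus strand) encodes the endothelin receptor that in endothelium is known for clearing the peptide and releasing nitric oxide. Endocardial-like cells had the highest level of any class, 657 and 601 CPM in KO 1 and KO 2 against 809 and 833 CPM in het 1 and het 2. Both KO libraries were lower, by -0.38 on the log2 scale (SE 0.193, edgeR adjusted p = 0.9997). In vascular-like cells Ednrb stood at 110 and 110 CPM in KO 1 and KO 2 against 221 and 188 CPM in het 1 and het 2, a log2 difference of -0.90 (SE 0.177). Its unadjusted p was 0.000774 and its adjusted p 0.9995 by edgeR, and the difference was -0.97 to -0.81 with 1 library left out. Thinned shares of vascular-like cells with an Ednrb UMI were 24.2% (18.3 to 31.4) and 10.0% (5.16 to 18.5) in KO 1 and KO 2, and 29.4% (24.3 to 35.2) and 21.6% (15.8 to 28.9) in het 1 and het 2. The interval of KO 2 lay below that of het 1, and the other intervals overlapped between the groups. Markers of other cells moved with this difference in vascular-like cells. Of 11 macrophage markers 9 were lower in both KO libraries, 0 higher and none at 0, with sums of 32.4 and 30.5 CPM in KO 1 and KO 2 and 68.8 and 67.4 CPM in het 1 and het 2. Of 16 cardiomyocyte markers 6 were lower in both, 0 higher and none at 0, with sums of 3552 and 962 CPM in KO and 6711 and 3404 CPM in het, where 13.2% of all genes were lower in both. Their part in the Ednrb difference was not tested.

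In valve endocardial-like cells Ednrb was lower than in the endocardial-like cluster, with 157 and 83.7 CPM in KO and 130 and 67.7 CPM in het, and the groups overlapped. The endocardial-like difference minus the vascular-like one was 0.52 (SE 0.112, edgeR adjusted p = 0.0620). It was 0.61 without KO 2, 0.67 without het 2, 0.43 without KO 1 and 0.37 without het 1. Vascular-like cells of het 1 were shallow, with a median of 4683 UMIs, against 13729, 28645 and 28222 in KO 1, KO 2 and het 2. Outside the endothelium Ednrb was high in macrophage-like cells, at 451 and 305 CPM in KO 1 and KO 2 and 460 and 288 CPM in het 1 and het 2. The number 1 library of each group was the higher one there, and the genotypes did not separate (log2 difference 0.03, SE 0.247).

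Ednra (ENSMUSG00000031616.7, chromosome 8, 77663031 to 77724464, minus strand), the receptor gene known from smooth muscle, neural crest mesenchyme and cardiomyocytes, was the only member with its highest levels outside the endothelial clusters. It stood at 20.3 and 16.0 CPM in cardiomyocyte-like cells of KO 1 and KO 2 and at 20.5 and 24.2 CPM in het 1 and het 2. Both KO libraries were the lower ones, by -0.20 on the log2 scale (SE 0.163), within a class where 22.9% of genes were lower in both KO libraries. The libraries filled this class from different clusters: cluster 5, led by Nppa and Nppb, held 262 and 137 cells of KO 1 and KO 2 and 2253 and 105 of het 1 and het 2. Cluster 1, led by Myl1, held 2326 and 965 cells of KO 1 and KO 2 and 96 and 882 of het 1 and het 2. Mesenchymal-like cells had 20.5 and 19.5 CPM in KO and 13.2 and 22.9 CPM in het, which overlapped. The 3 endothelial subtypes had 0.617 to 5.76 CPM of Ednra, and the epicardial-like, macrophage-like and erythroid-like classes 0 to 1.13 CPM. The ligand gene thus had its highest mean in valve endocardial-like cells. Cluster 13 overlapped these and stood just above the range of endocardial-like cells. The protease gene was highest in endocardial-like cells, and this receptor gene in cardiomyocyte-like and mesenchymal-like cells.

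Piezo1 (ENSMUSG00000014444.17, chromosome 8, 122481698 to 122551329, minus strand), the channel opened by membrane tension, was at 161 and 136 CPM in endocardial-like cells of KO 1 and KO 2 and 172 and 127 CPM in het 1 and het 2. Valve endocardial-like cells had 174 and 148 CPM in KO and 130 and 136 CPM in het. Epicardial-like cells reached 149 and 113 CPM in KO and 114 and 104 CPM in het, which overlapped the range of both endocardial clusters. Among the classes that were tested and where Piezo1 reached 20 CPM, no difference between genotypes was larger than 0.27 on the log2 scale. Erythroid-like cells, which were not tested, had 45.6 and 37.3 CPM in KO and 42.9 and 23.7 CPM in het.

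Klf2 (ENSMUSG00000055148.7, chromosome 8, 72319033 to 72321656, plus strand), the flow-induced transcription factor gene, was highest in valve endocardial-like cells, at 1141 and 1116 CPM in KO 1 and KO 2 and 897 and 1157 CPM in het 1 and het 2. Endocardial-like cells had 326 and 281 CPM in KO against 354 and 388 CPM in het, and vascular-like cells 124 and 122 CPM in KO against 130 and 196 CPM in het. Both KO libraries were below both het libraries in these 2 subtypes, by -0.29 (SE 0.186) and -0.43 (SE 0.233) on the log2 scale, and by -0.05 in the vascular-like cluster without het 2. In the valve endocardial-like cluster the groups overlapped, with 0.12 (SE 0.199). Macrophage-like cells also had Klf2, at 218 and 185 CPM in KO and 213 and 184 CPM in het.

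Klf4 (ENSMUSG00000003032.8, chromosome 4, 55527143 to 55532466, minus strand), the sister factor gene, was also highest in valve endocardial-like cells, where it separated the groups. It stood at 380 and 493 CPM in KO 1 and KO 2 against 262 and 260 CPM in het 1 and het 2, a log2 difference of 0.74 (SE 0.206, edgeR adjusted p = 0.99997, unadjusted p = 0.00976). It was 0.72 without het 1 and 0.48 without KO 2. In endocardial-like cells the libraries were close together, 66.0 and 66.7 CPM in KO and 68.1 and 79.6 CPM in het. The endocardial-like difference minus the valve endocardial-like one was -0.88 (SE 0.163), with edgeR adjusted p = 0.186. It was -1.06 to -0.70 with 1 library left out. Epicardial-like cells had the next level, 146 and 96.7 CPM in KO and 117 and 111 CPM in het.

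In the valve endocardial-like cluster, library het 1 differed from the others in depth and in cardiomyocyte markers. Its median was 4076 UMIs per cell, against 15449, 25431 and 17426 in KO 1, KO 2 and het 2. Cardiomyocyte markers took 1.06% of its UMIs there, against 0.259% and 0.0925% in KO 1 and KO 2 and 0.209% in het 2. The part of these in the valve endocardial-like results was not tested, and without het 1 the log2 differences were 0.72 for Klf4, 0.29 for Edn1, 0.26 for Aqp1 and 0.10 for Nos3. General endothelial markers also moved with the members there. Of 12 such markers 8 were higher in both KO libraries, 0 lower and none at 0, with sums of 5356 and 5345 CPM in KO 1 and KO 2 and 4206 and 5104 CPM in het 1 and het 2. Of 12 endocardial markers 5 were higher in both and 0 lower, and of 11 macrophage markers 5 were lower in both and 0 higher, with none at 0. Over all genes tested there, 15.2% were higher and 14.7% lower in both KO libraries. The macrophage markers summed to 35.5 and 13.2 CPM in KO and 86.5 and 24.3 CPM in het.

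Nos3 (ENSMUSG00000028978.12, chromosome 5, 24364810 to 24384474, plus strand), the nitric oxide synthase gene, was an endothelial transcript, with at most 4.93 CPM in any library of another named class. Endocardial-like cells had 123 and 97.5 CPM in KO and 147 and 122 CPM in het. Valve endocardial-like cells had 198 and 193 CPM in KO and 145 and 177 CPM in het, and vascular-like cells 83.2 and 77.1 CPM in KO and 91.7 and 82.9 CPM in het. The log2 differences were -0.28 (SE 0.163), 0.26 (SE 0.178) and -0.13 (SE 0.164).

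Aqp1 (ENSMUSG00000004655.5, chromosome 6, 55336432 to 55348555, plus strand), the water channel gene, set the valve endocardial-like cluster apart. It stood at 446 and 702 CPM there in KO 1 and KO 2 and at 303 and 471 CPM in het 1 and het 2, with wide spread within each group. The groups overlapped, and the log2 difference of 0.56 (SE 0.322) was 0.13 without KO 2, 0.26 without het 1, 0.90 without KO 1 and 0.95 without het 2. In endocardial-like cells it was low but separated the groups, at 31.2 and 25.6 CPM in KO against 17.1 and 16.5 CPM in het. That log2 difference was 0.75 (SE 0.175, edgeR adjusted p = 0.513), and it was 0.68 to 0.82 with 1 library left out. Epicardial-like cells had 73.5 and 63.4 CPM in KO and 67.8 and 60.6 CPM in het.

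**Figure D3:**
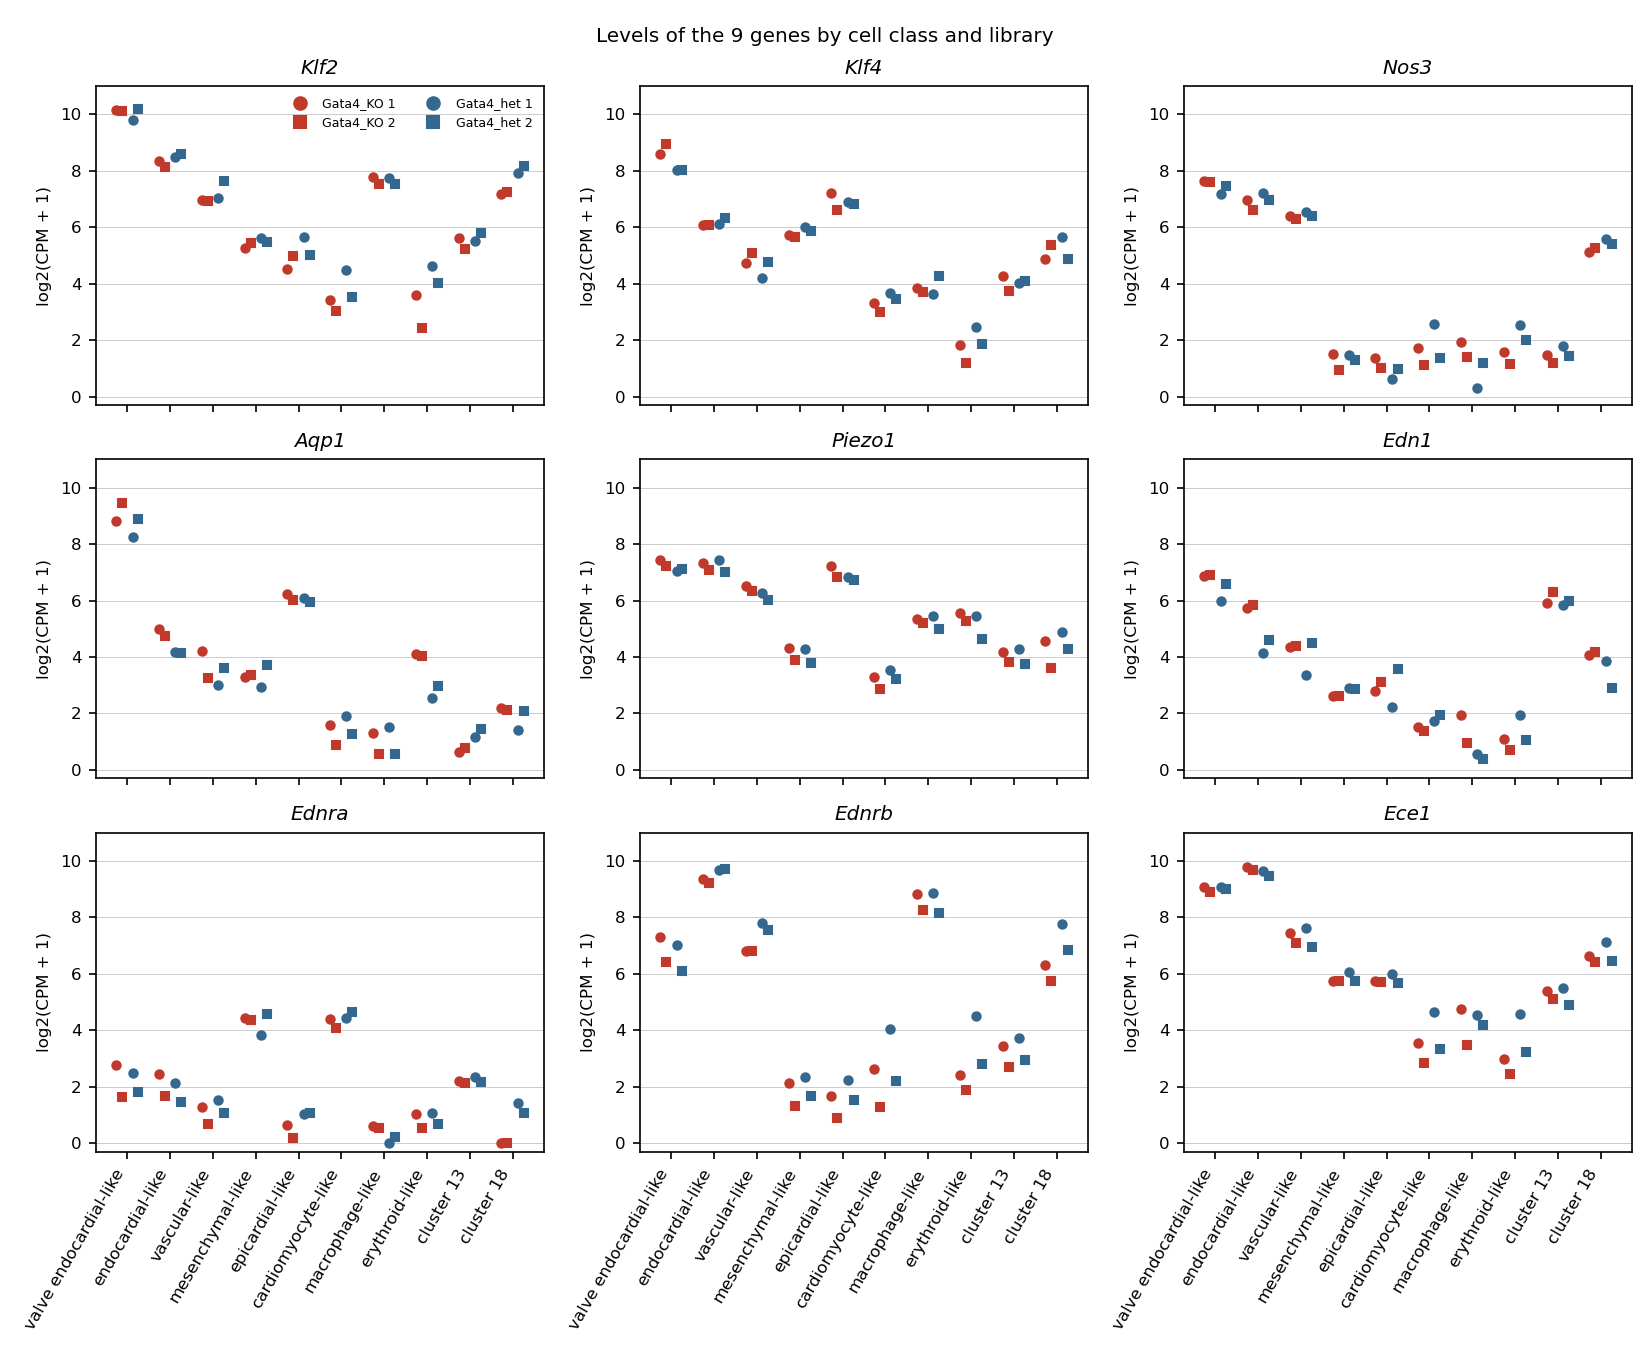
Level of each of the 9 genes (y axis, log2 of CPM + 1) in 10 classes or unnamed clusters (x axis), KO libraries in red left of het libraries in blue, replicate 1 as circles and replicate 2 as squares. Klf2, Klf4 and Aqp1 are highest in valve endocardial-like cells, where Edn1 has its highest mean and overlaps cluster 13. Ednrb and Ece1 are highest in endocardial-like cells, and Ednra in cardiomyocyte-like and mesenchymal-like cells.

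The order of classes was read from the range over the 4 libraries. Valve endocardial-like cells stood above every other class without overlap for Klf2, Klf4 and Aqp1, and they overlapped the endocardial-like cluster for Nos3 and cluster 13 for Edn1. Endocardial-like cells stood above every other class without overlap for Ednrb and Ece1. For Piezo1 the endocardial-like, valve endocardial-like and epicardial-like ranges overlapped, and for Ednra the cardiomyocyte-like and mesenchymal-like ones did. These are descriptions of clusters, with no test. In cardiomyocyte-like cells het 1 had more transcripts of genes that were highest in endothelial-like cells. Ece1 was at 23.8 CPM in het 1, against 10.8, 6.13 and 9.08 in KO 1, KO 2 and het 2. The endothelial marker Cdh5 was at 22.1 CPM in het 1, against 7.68, 2.20 and 3.89. Low levels in that class were therefore not compared.

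Across the endocardial-like cluster as a whole, 5 of 14324 genes (0.0349%) passed an adjusted p of 0.05 in edgeR, and none of the 9 did. The 5 were named after their values were seen: Dkk1, Vwf, Neil2 and Bmp6 were higher in KO, and Ptpre was lower. At an unadjusted p of 0.05, 663 genes (4.63%) and 2 of the 9 members (Edn1 and Aqp1) were past the limit. Of the 8 members at 20 CPM or more in 1 group, 3 (Edn1, Aqp1 and Ece1) were higher in both KO libraries and 3 (Ednrb, Klf2 and Klf4) lower in both, where 13.5% and 13.9% of all genes were so ordered. In valve endocardial-like cells 4 of 8 (Edn1, Klf4, Nos3 and Piezo1) were higher in both KO libraries and 0 lower, against 15.2% and 14.7% of all genes. In vascular-like cells 1 of 6 (Piezo1) was higher and 2 (Ednrb and Klf2) lower, against 13.9% and 13.2% of all genes.

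In the other classes edgeR called 0 genes (0%). At an unadjusted p of 0.05 it had 527 genes (4.05%) in valve endocardial-like cells, with Klf4 and Edn1 among them, and 367 (3.17%) in vascular-like cells, with Ednrb. Over all endothelial-like cells there were 556 (3.5%), with Edn1, and in epicardial-like cells 227 (1.63%), with Klf2. Mesenchymal-like cells had 197 (1.27%), cardiomyocyte-like cells 281 (1.69%), macrophage-like cells 182 (1.54%) and cluster 13 had 125 (0.871%), with no member at 20 CPM or more among them. DESeq2 called 30 genes in endothelial-like, 28 in valve endocardial-like and 1 in epicardial-like cells, and 0 in the vascular-like, mesenchymal-like, cardiomyocyte-like and macrophage-like classes and cluster 13. No member at 20 CPM or more was among those.

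Outside the endothelium the tested members at 20 CPM or more that did not overlap were all lower in KO. In mesenchymal-like cells 0 of 3 members at 20 CPM or more were higher in both KO libraries and 3 (Klf2, Klf4 and Ece1) lower in both, against 9.2% and 10.9% of all genes. In epicardial-like cells 0 of 5 were higher and 1 (Klf2) lower, against 10.9% and 11.3%. The 1 such member in cardiomyocyte-like cells, Ednra, was lower, against 6.51% of genes higher and 22.9% lower. In macrophage-like cells (3 members, 9.93% and 13.1% of genes) and cluster 13 (3 members, 9.46% and 11%) all of them overlapped.

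The interaction of endocardial-like and vascular-like effects gave 66 genes of 13507 (0.489%), and no member at 20 CPM or more in both was called. That of endocardial-like and valve endocardial-like effects gave 0 of 14529 (0%), with 1124 at an unadjusted p of 0.05, and that of endothelial-like and cardiomyocyte-like effects 0 of 18367 (0%), with 917. No member reached 20 CPM in both endothelial-like and cardiomyocyte-like cells.

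**Figure D4:**
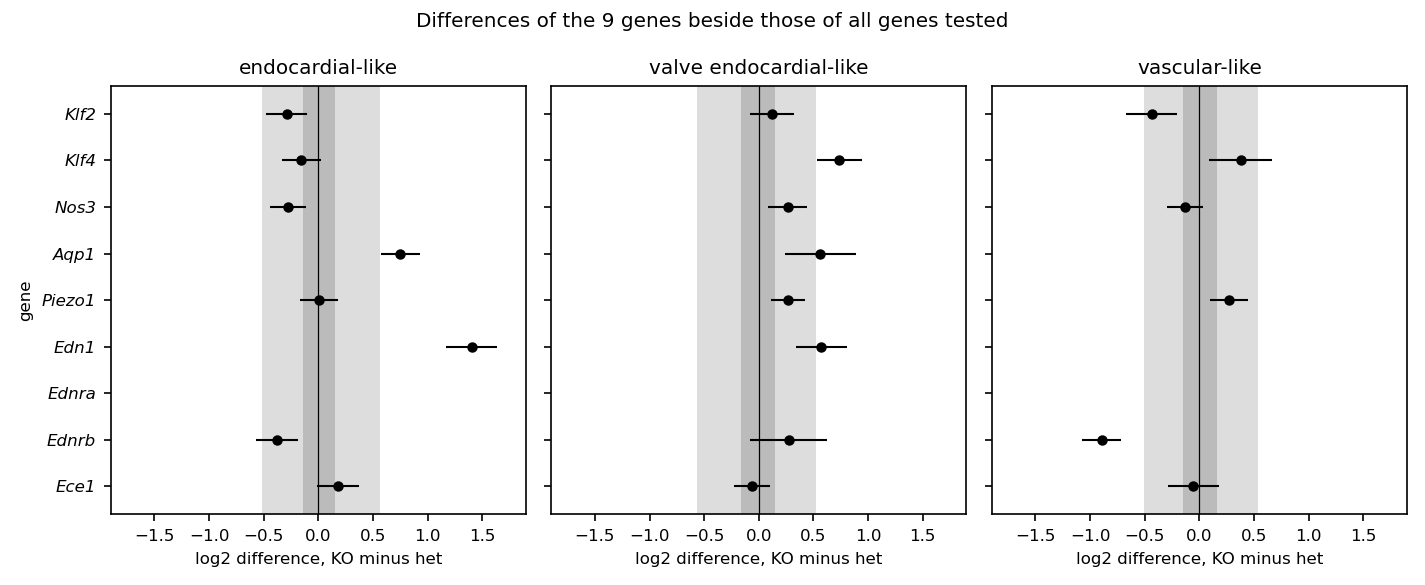
Log2 difference, KO minus het, of each gene at 20 CPM or more (x axis; points with SE bars from edgeR) in the 3 endothelial subtypes, over grey bands that hold 50% (dark) and 90% (light) of all genes tested. Edn1 at 1.40 and Aqp1 at 0.75 in endocardial-like cells, Klf4 at 0.74 and Edn1 and Aqp1 at 0.57 and 0.56 in valve endocardial-like cells, and Ednrb at -0.90 in vascular-like cells lie outside the light band.

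Over the endothelial-like class as a whole, where subtype make-up differed, Edn1 was at 62.0 and 62.5 CPM in KO 1 and KO 2 and 34.1 and 45.8 CPM in het 1 and het 2, a log2 difference of 0.63 (SE 0.207). Of the 8 members at 20 CPM or more, 3 (Edn1, Ece1 and Klf4) were higher in both KO libraries and 1 (Klf2) lower, against 11.8% and 13.4% of all genes. Klf2 stood at 496 and 418 CPM in KO and 535 and 595 CPM in het, and Ece1 at 645 and 634 CPM in KO and 571 and 528 CPM in het. Ednrb overlapped, with 411 and 417 CPM in KO and 408 and 459 CPM in het. With only the cells that held an EGFP UMI, or with cluster 18 added, the call counts of edgeR stayed at 0.

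Other genes of these pathways were read from 3 lists, and no gene of any list passed the adjusted threshold in any class. Flow sensing and signalling (21 genes) had 20 tested in endocardial-like cells, with 12 above 0 and a median log2 difference of 0.06, beside 50.2% above 0 and a median of 0.001 over all genes. In valve endocardial-like cells 17 of 21 tested were above 0 (median 0.19), and 5 had an unadjusted p under 0.05 with higher values in KO. Over all genes there 48.95% were above 0, the median was -0.005 and 4.05% had such a p in either direction. Pecam1, Cdh5 and Kdr of this list are also among the 12 general endothelial markers, of which 8 were higher in both KO libraries there. Library het 1 was shallow in that cluster, and the part of both in the list's shift was not tested. In vascular-like cells 18 of 20 were above 0 (median 0.20), beside 49.2% of all genes and a median of -0.004. The members with the lowest p over all endothelial-like cells were Piezo2, a second tension-gated channel, Trpv4, a calcium channel, Kdr, the receptor for vascular endothelial growth factor, and Pecam1, an adhesion molecule of the junctional flow sensor. Kdr in valve endocardial-like cells stood at 227 and 195 CPM in KO 1 and KO 2 against 140 and 152 CPM in het 1 and het 2. Among the subtypes Piezo2 was highest in vascular-like cells, at 123 and 96.2 CPM in KO and 83.5 and 84.8 CPM in het. Pecam1 over all endothelial-like cells was at 709 and 620 CPM in KO and 558 and 526 CPM in het, and Trpv4 at 1.96 and 2.22 CPM in KO and 0.836 and 1.34 CPM in het.

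The list of flow-responsive targets (20 genes) had medians of 0.08, 0.18 and 0.18 in the endocardial-like, valve endocardial-like and vascular-like clusters. Gja5, the connexin gene of arterial and flow-exposed endothelium, was furthest apart. In endocardial-like cells it stood at 19.1 and 26.8 CPM in KO 1 and KO 2 against 3.18 and 5.93 CPM in het 1 and het 2, a log2 difference of 2.23 (SE 0.346, edgeR adjusted p = 0.191). Thbd, the thrombomodulin gene and a target of Klf2, was at 105 and 109 CPM in valve endocardial-like cells of KO 1 and KO 2 against 54.0 and 45.5 CPM in het 1 and het 2 (1.10, SE 0.162). In endocardial-like cells it differed by 0.11 on the log2 scale, with 54.6 and 51.8 CPM in KO and 53.1 and 46.1 CPM in het. The immediate early gene Egr1 was at 209 and 290 CPM in endocardial-like cells of KO against 147 and 115 CPM in het. Txnip, a thioredoxin inhibitor gene, went the other way there, with 203 and 147 CPM in KO and 299 and 211 CPM in het.

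The rest of the endothelin axis (16 genes: other ligands, receptor signalling and targets) had 9, 9 and 8 genes tested in the 3 subtypes, with medians of -0.05, -0.06 and -0.02. Plcb4, a phospholipase that couples the receptors to calcium, was at 102 and 78.6 CPM in vascular-like cells of KO 1 and KO 2 against 53.8 and 49.6 CPM in het 1 and het 2 (0.79, SE 0.177). Plcb1, of the same family, was at 18.2 and 13.4 CPM over all endothelial-like cells of KO and 22.6 and 17.8 CPM in het. Arrb2, an arrestin that ends receptor signalling, was at 20.8 and 21.3 CPM in KO and 26.3 and 24.8 CPM in het. Rgs5 was near 0, at 3.11 CPM or less over all endothelial-like cells of every library.

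**Figure D5:**
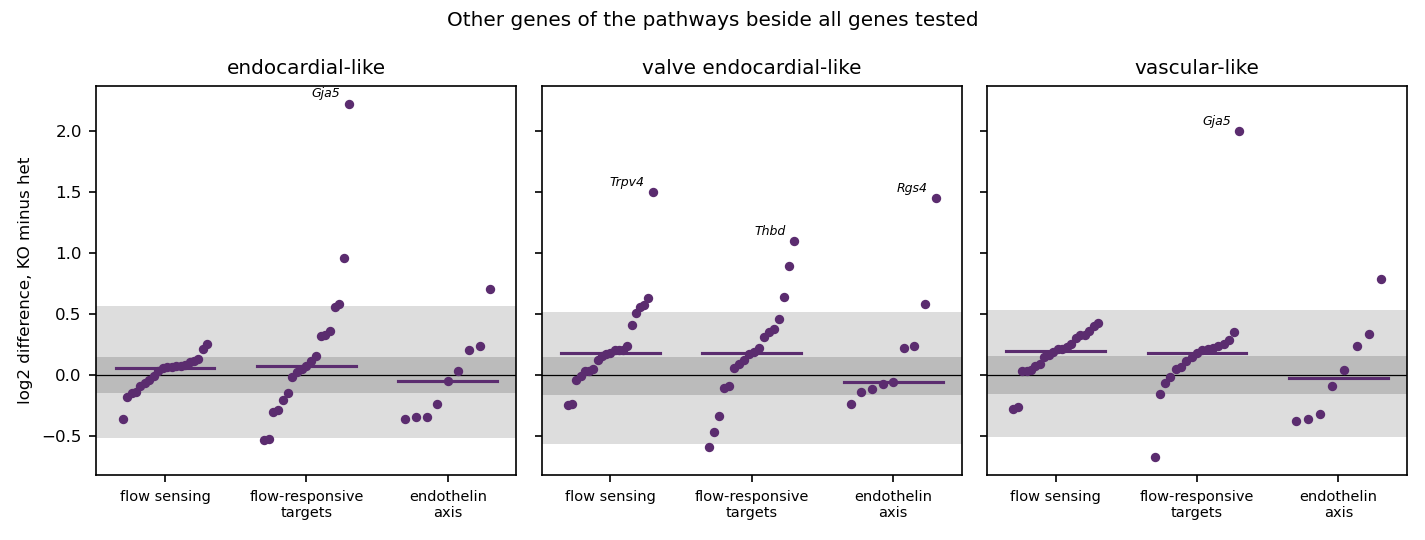
Log2 difference, KO minus het (y axis), of each tested gene of the 3 lists (x axis) in the 3 endothelial subtypes, with a line at each list's median and grey bands that hold 50% (dark) and 90% (light) of all genes tested. Gja5 stands at 2.23 in endocardial-like cells and Thbd at 1.10 in valve endocardial-like cells, and the list medians lie between -0.06 and 0.20.

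Genes most like each member were read from the Pearson correlation of log2(CPM + 1) over 40 profiles of 10 classes, as a description: the profiles share libraries and cell types. Nos3 was most like Gja4 (r = 0.987), Erg (0.985) and Tie1 (0.980), all endothelial genes. Klf2 was most like Cxcl16 (0.963), Peli2 (0.935) and Entpd1 (0.932), and Klf4 like Hs3st1 (0.926), Sfxn3 (0.919) and Csad (0.900). Edn1 was most like Heg1 (0.893), which encodes a partner of the cerebral cavernous malformation proteins at endothelial junctions, then Mcu (0.869) and Plcd1 (0.863). Ednrb was most like Slfn5 (0.951), Smagp (0.938) and Arhgap27 (0.938), and Ece1 like G3bp2 (0.943), Foxo1 (0.940) and Myo6 (0.938). Aqp1 was most like Net1 (0.941), Ednra like Prrx2 (0.899) and Piezo1 like Pnpla6 (0.882).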

How the data were processed

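Ventricle cells of 2 KO and 2 het libraries were analysed. The authors deposited unnormalized UMI counts for each gene in each barcode, made with Cell Ranger 6.0.1, per the file headers. The submitters' processing notes name mm10, Cell Ranger and Seurat. The labels conflict on the kit (3′ v2 or a later one), and counting by strand is not given in the sources used here. The 9 genes, the lists and the tests were chosen with earlier results of these data known.

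Barcodes with under 500 genes or over 20% mitochondrial UMIs were left out. Scrublet (scanpy 1.11.5, expected rate 0.1) found a usable threshold only in het 2, 0.345, which was used for all libraries after the scores were seen; it removed 409 and 69 doublets in KO 1 and KO 2 and 287 and 241 in het 1 and het 2. Counts were scaled to 10000 per cell, and 2000 variable genes without the 9 members, scaled within each library, gave 30 principal components, 20 neighbours and 43 Leiden clusters (igraph 0.11.9, resolution 1). A cluster of another class than cardiomyocytes took a name when its markers averaged a log2 fold of at least 1, at least 3 were detected and its leading 10 genes fitted. Cardiomyocyte markers had to take under 1% of UMIs in such clusters. Clusters of at least 50 cells where they took at least 6% were named cardiomyocyte-like by that share alone. Both limits were set after seeing the clusters. The mean log2 fold of cardiomyocyte markers was 0.84 in cluster 3 and 0.80 in cluster 9 of that class. In all, 16 clusters were named and 27 were not, so shares of cells may differ from the study's.

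UMIs were summed per library and class (at least 50 cells each), filtered with filterByExpr, scaled by TMM and tested by edgeR 4.0.16 (quasi-likelihood, R 4.3.3), KO against het, with Benjamini-Hochberg adjustment over all genes and a threshold of 0.05. SE is that of the log2 difference. Differences are given for members at 20 CPM or more in a group. Interactions used library as a block. DESeq2 1.42.0 and limma 3.58.1 were alternatives. The test code was tested on simulated data. The tests of valve endocardial-like and macrophage-like cells and cluster 13 were added after the clusters were seen. Named genes were the 9 members, up to 4 of lowest p per list in endothelial-like cells, and the 3 most alike genes per member. Gene positions are from GENCODE M21.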

Additional observations from a re-analysis of the deposited data

Results flagged for a closer look

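Aqp1, the water channel of red blood cells, was seen in erythroid-like cells, a class that no comparison above uses. It averaged 15.8 CPM in the KO libraries (16.4 and 15.2 CPM, from 278 and 164 UMIs), against 4.79 and 6.78 CPM in het 1 and het 2 (17 and 57 UMIs). The lower KO library was at more than 2 times the higher het library, and no test was run. Globin took 63.3% and 59.3% of the UMIs of these cells in KO 1 and KO 2, against 76.6% and 73.8% in het 1 and het 2. The class joins clusters 0 and 16, and cluster 16 held 770 of 2257 and 308 of 786 of these cells in KO 1 and KO 2, against 23 of 946 and 146 of 1552 in het 1 and het 2. The part of this make-up in the Aqp1 level was not tested.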

How the results depend on the processing

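Each member's log2 difference was recomputed with 1 choice changed at a time, and each member's interaction value with 1 library left out. Of 374 such values 28 changed sign. No member passed the threshold in the main fits and interactions, so none could lose it. Among changes that kept every library, 1 of 45 values newly passed it with DESeq2. With the replicate number as a block 9 of 45 did, and with the other such changes 0 did. Call counts moved most. DESeq2 called 30 genes in endothelial-like, 40 in endocardial-like, 28 in valve endocardial-like and 1 in epicardial-like cells, and no filter on low counts gave 244 in endothelial-like cells. With 1 library left out the counts were 4 to 209 in endothelial-like, 87 to 131 in endocardial-like, 0 to 161 in valve endocardial-like, 2 to 159 in vascular-like, 1 to 48 in mesenchymal-like, 12 to 76 in epicardial-like, 0 to 250 in cardiomyocyte-like and 6 to 89 in macrophage-like cells, 10 to 60 in cluster 13, and 86 to 309, 4 to 246 and 0 for the endocardial-like effect minus the vascular-like one, minus the valve endocardial-like one, and for the endothelial-like minus the cardiomyocyte-like one. The lone library left in a group is then assumed to vary like the others, and the cause of these shifts was not tested.

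By the labels used here, libraries of the 2 groups share only a number. Deviations from the group mean of the number 1 libraries correlated between the groups at 0.345 to 0.582 over genes, depending on the class. With 2 libraries per group the number 2 deviations mirror these, so this is 1 comparison. The number 1 library also had the lower median of UMIs per cell in both groups. The main tests did not use this structure. With the replicate block 351 of 15886 genes tested were called in endothelial-like cells and 650 of 14324 in endocardial-like cells. In valve endocardial-like cells 382 of 13017 were called, and in vascular-like cells 130 of 11586. Mesenchymal-like cells had 85 of 15490, epicardial-like 10 of 13904, cardiomyocyte-like 269 of 16624 and macrophage-like 5 of 11780. Cluster 13 had 0 of 14357. Under the block Edn1 (log2 1.42), Aqp1 (0.74), Ednrb (-0.38) and Nos3 (-0.28) passed in endocardial-like cells, Klf4 (0.72), Aqp1 (0.56) and Edn1 (0.60) in valve endocardial-like cells, Ednrb (-0.89) in vascular-like cells and Edn1 (0.65) over all endothelial-like cells.

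Changes of sign were seen for small differences. Over all endothelial-like cells Aqp1 was 0.009 by limma-voom and 0.042 in cells with an EGFP UMI. With 1 library left out, log2 differences ran from -0.189 to 0.196 for Aqp1 and -0.205 to 0.093 for Ednrb in endothelial-like cells, -0.13 to 0.158 for Piezo1 and -0.322 to 0.051 for Klf4 in endocardial-like cells, -0.18 to 0.777 for Ednrb and -0.072 to 0.354 for Klf2 in valve endocardial-like cells, -0.327 to 0.261 for Ece1 in vascular-like cells, and -0.173 to 0.305 for Klf4 in epicardial-like cells. They ran from -0.049 to 0.11 for Klf2, -0.234 to 0.355 for Ednrb and -0.142 to 0.247 for Piezo1 in macrophage-like cells, and from -0.209 to 0.277 for Ece1 and -0.062 to 0.433 for Edn1 in cluster 13. Endocardial-like minus vascular-like effects ran from -0.262 to 0.012 for Nos3, -0.056 to 0.474 for Ece1 and -0.106 to 0.323 for Klf2, and endocardial-like minus valve endocardial-like ones from -0.238 to 0.702 for Aqp1. Depth limits low members: 3 UMIs in endocardial-like cells of het 1 stand for 0.597 CPM.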
